A study of Mus musculus with 10 samples.

Results

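COX-deficient melanomas grown without NK cells were compared with COX-competent melanomas grown in untreated mice. The comparison takes in 7 of the 10 bulk tumor libraries of the series, chosen by their labels: 3 Ptgs-/- tumors of NK cell-depleted mice and 4 Ptgs+/+ tumors. The remaining 3 libraries are Ptgs-/- tumors of untreated mice, whose values are given beside those of the comparison for some genes and lists, not all. They also entered the same model, through its filter, scaling and estimate of spread, and so bear on its adjusted p-values. Where stated, they are compared directly with the NK cell-depleted tumors. All tumors came from C57BL/6 hosts that were 8 weeks old and were taken on day 4 after cells of a Braf V600E-driven melanoma line were injected under the skin. Ptgs+/+ tumors grew from wild-type cells. Ptgs-/- tumors grew from cells in which Ptgs1 and Ptgs2, the genes for COX-1 and COX-2, had been disrupted by CRISPR/Cas9, while the host cells kept both genes. Whether the deficient cells are 1 clone is not given in the sources used here. According to the labels, depleted mice received anti-NK1.1 (200 µg) together with anti-asialo GM1 (30 µg) on days 0 and 2, and the study's methods describe another schedule. There was no Ptgs+/+ tumor in an NK cell-depleted mouse, so the effects of COX loss and of NK cell depletion cannot be told apart within this comparison.

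COX enzymes convert arachidonic acid into the precursor of prostaglandins, among them PGE2. PGE2 signals through receptors such as EP2 and EP4, which raise cAMP in the receiving cell, and it is known to promote myeloid inflammation and to restrain NK cells and dendritic cells. NK cells are innate lymphocytes that kill target cells with granzymes and perforin and are an early source of IFN-γ, a cytokine that induces antigen presentation genes and the chemokines that attract T cells.

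The 7 libraries held between 9345395 and 12839174 counts of 3′ transcript ends. Levels are given as CPM, the count relative to the library total after TMM scaling, and 3 counts, taken as the detection floor in a library, correspond to 0.234 to 0.321 CPM (counting error only). Titles in the labels hold 2 codes, which were taken to be experiments, and the second is carried by Ptgs+/+ replicate 4 and by no NK cell-depleted tumor. Among the Ptgs+/+ libraries, replicate 3 differed most from the others (chi-square of 30.9 to 32.0 per degree of freedom, against 8.61 to 19.6 for the other pairs). Values without it are given for some of the calls that depend on it, not all. Of the melanocytic list, Mitf, the lineage's transcription factor, averaged 22.2 ± 5.73 CPM (SD, n = 4) in Ptgs+/+ and 26.5 ± 2.17 CPM (SD, n = 3) in NK cell-depleted Ptgs-/- tumors. It passed the test only without Ptgs+/+ replicate 3 (log2 fold change 0.45, adjusted p = 0.0483, edgeR). The pigmentation genes Dct, Tyrp1, Tyr, Pmel and Mlana were too low to be tested, with at most 8 counts in any library. No pair of replicates agreed within sampling noise, and nothing in the labels says how the tumors of a group were obtained, so p-values measure the spread between these samples.

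The largest changes lay in skeletal muscle genes, which were higher in NK cell-depleted Ptgs-/- tumors, and the strongest falls took in NK cell genes, chemokines and secreted factors. Genes were tested with the quasi-likelihood method of edgeR, and p was adjusted by the Benjamini-Hochberg procedure. Of 14550 genes tested, 394 (2.71%) were called, meaning an adjusted p at or under 0.05 together with a log2 fold change beyond 1.5 in either direction, and for 389 of them (2.67% of genes) the libraries of the groups did not overlap. NK cell-depleted Ptgs-/- tumors were higher for 292 of these genes (2.01%) and lower for 102 (0.701%). With no limit on the fold change, 1846 genes (12.7%) passed, 975 (6.7%) higher and 871 (5.99%) lower, and this is the background for the counts of list members below. Both counts moved when a single library was left out. They ran from 561 (without NK cell-depleted replicate 3) to 1126 genes higher and from 369 (without the same library) to 1051 lower. Counts of list members moved too, and many of the larger moves, not all, are given below beside the library left out. The median log2 fold change over all genes tested was -0.01. The 3 NK cell-depleted libraries lay entirely above the 4 Ptgs+/+ libraries for 13.6% of genes and entirely below them for 13.1%.

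**Figure D1:**
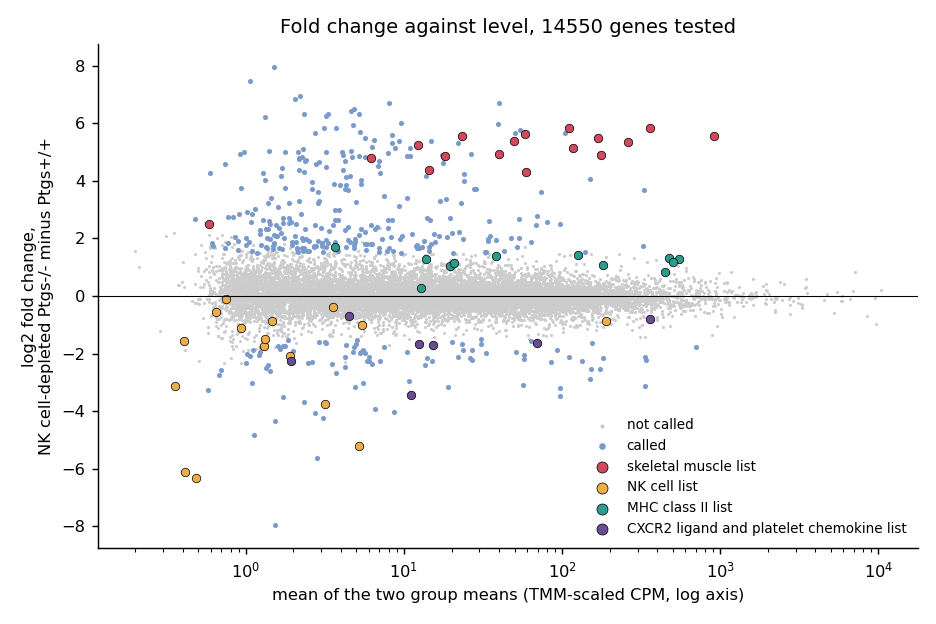
Log2 fold change of NK cell-depleted Ptgs-/- minus Ptgs+/+ tumors against the mean level in CPM (log axis), 1 point per gene, for all 14550 genes tested, with called genes in blue and 4 gene lists in other colors. The skeletal muscle genes form a band between 2.51 and 5.83, while the MHC class II genes lie between 0.28 (Cd86) and 1.70 (H2-Ob).

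**Figure D2:**
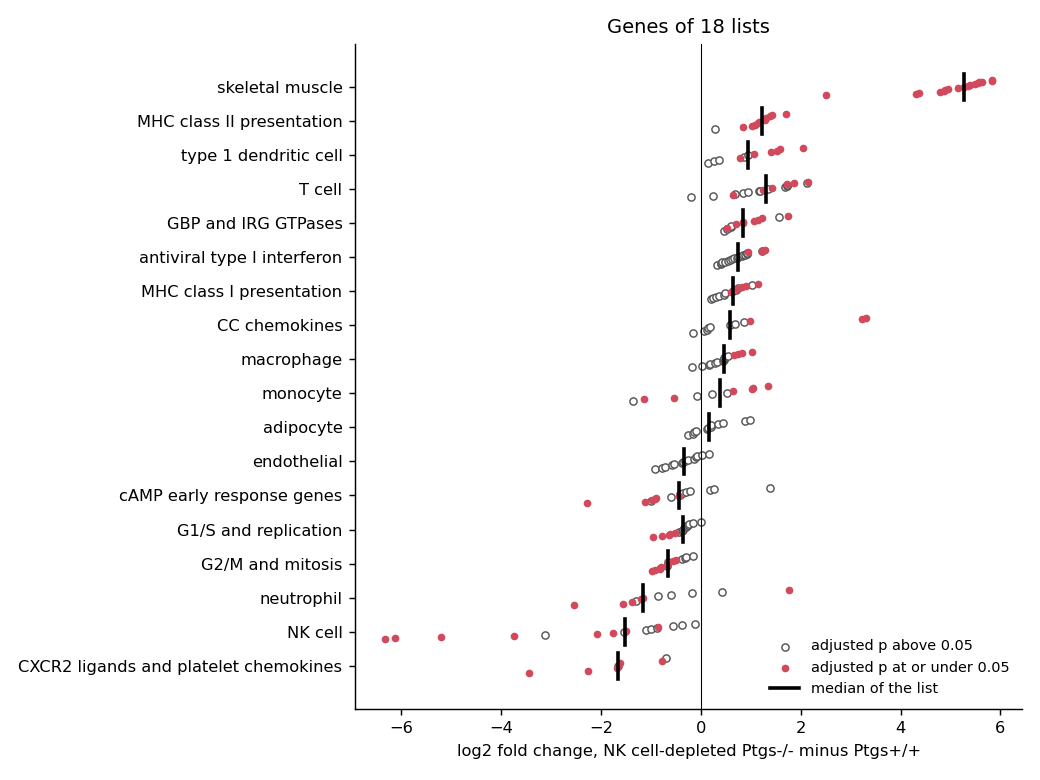
Log2 fold changes of the tested members of 18 gene lists, 1 point per gene, filled where the adjusted p from edgeR was at or under 0.05, with a bar at each list's median. Medians run from 5.26 for skeletal muscle to -1.65 for CXCR2 ligands and platelet chemokines.

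Both targeted genes were lower, with transcript remaining. Reads of 3′ ends cover host and tumor cells together and need not include the edited bases, so these levels do not check the disruption. Ptgs2 (ENSMUSG00000032487, chromosome 1 of GRCm38, 150100031 to 150108227), which encodes the inducible enzyme, stood at 353, 302, 96.7 and 283 CPM in Ptgs+/+ tumors and at 49.5, 40.5 and 44.3 CPM in NK cell-depleted Ptgs-/- tumors. The groups did not overlap, although Ptgs+/+ replicate 3 lay well below the other three. Its log2 fold change came to -2.53 (standard error 0.52, adjusted p = 0.0147, edgeR). This call was lost without any 1 of the NK cell-depleted libraries, with adjusted p of 0.0588, 0.0618 and 0.0672 without replicates 1, 2 and 3 (edgeR). Ptgs1 (ENSMUSG00000047250, chromosome 2, 36230426 to 36252272), which encodes the constitutive enzyme, stood at 173, 161, 159 and 128 CPM against 95.6, 98.5 and 94.9 CPM. It was therefore lower in each depleted tumor than in each Ptgs+/+ tumor, and its log2 fold change was -0.69 with a standard error of 0.13 (adjusted p = 0.0045, edgeR). In bulk tumors, fewer cells of a type and less RNA per cell cannot be told apart, here and for every list below.

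The other genes of prostanoid synthesis moved little as a group. Of 14 enzymes and transporters tested, 1 rose and 1, Ptges3, fell, and the median log2 fold change was 0.15. No member fell without NK cell-depleted replicate 1 or 3 or Ptgs+/+ replicate 2. Without Ptgs+/+ replicate 1, 2 rose, and without untreated Ptgs-/- replicate 1, 2 fell. Thromboxane synthase, Tbxas1, rose from 18.5, 10.7, 20.5 and 16.3 CPM to 45.9, 45.6 and 52.9 CPM, with a log2 fold change of 1.54 and a standard error of 0.19 (adjusted p = 0.00029, edgeR). The PGE2 synthase Ptges was at 161, 171, 156 and 155 CPM in Ptgs+/+ tumors and at 136, 152 and 104 CPM in depleted Ptgs-/- tumors, and did not pass (adjusted p = 0.21, edgeR). Of 6 prostanoid receptors tested, the PGF2α receptor Ptgfr fell, with 25, 23.8, 25.3 and 17.6 CPM against 2.79, 6.13 and 6.46 CPM (log2 fold change -2.15). The EP4 receptor Ptger4 rose from 16.8, 13.1, 17.9 and 19.7 CPM to 24.1, 33.2 and 27.5 CPM (log2 fold change 0.74). Without NK cell-depleted replicate 2, Ptger4 no longer passed (adjusted p = 0.0762, edgeR).

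Genes that respond early to cAMP were lower in part. Of 16 tested, 6 fell and none rose, with a median log2 fold change of -0.44. The orphan nuclear receptor Nr4a2 was at 157, 179, 121 and 106 CPM in Ptgs+/+ tumors and at 31.2, 29.2 and 25.8 CPM in NK cell-depleted Ptgs-/- tumors (log2 fold change -2.29, standard error 0.21, adjusted p = 8.2e-05, edgeR). Its level in Ptgs-/- tumors of untreated mice was in the same range, at 30.9, 18.5 and 23.7 CPM. Crem, a repressor that cAMP induces, had a log2 fold change of -0.89, and Pde4b, a phosphodiesterase that breaks down cAMP, one of -0.98. Nr4a3 was at 9.85, 9.33, 7.82 and 8.27 CPM against 3.43, 4.09 and 4.60 CPM (log2 fold change -1.12). Nr4a3 also differed between Ptgs-/- tumors without and with NK cells, by -0.97 (adjusted p = 0.034, edgeR). The phosphatase gene Dusp1 had a log2 fold change of -0.92 and lost its call in 6 of 10 refits that dropped a single library (adjusted p up to 0.138, reached without NK cell-depleted replicate 2, edgeR). Nr4a1 did not pass, at 95.5, 99.9, 11.6 and 74.4 CPM against 35.2, 30.9 and 39.5 CPM, where Ptgs+/+ replicate 3 lay below every depleted tumor. Without that library its log2 fold change was -1.36 and it passed (adjusted p = 0.0086, edgeR).

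The Dusp1 promoter is shown because it holds the 8-letter cAMP response element TGACGTCA, which reads the same on both strands, and is that of a member that fell. Sequences here are RefSeq windows of 300 bases on the gene's strand, 250 before the transcript start and 50 after it, in GRCm38.p6, and capitals mark the motif. Of 16 genes of the list, 14 had a promoter in the table, and 2 of these, Areg and Dusp1, held the motif, against 1.79% of all 32851 promoters. The Dusp1 window lies on chromosome 17 (chr17:26508423-26508722, minus strand), with the motif starting 143 bases before the transcript start.
Dusp1: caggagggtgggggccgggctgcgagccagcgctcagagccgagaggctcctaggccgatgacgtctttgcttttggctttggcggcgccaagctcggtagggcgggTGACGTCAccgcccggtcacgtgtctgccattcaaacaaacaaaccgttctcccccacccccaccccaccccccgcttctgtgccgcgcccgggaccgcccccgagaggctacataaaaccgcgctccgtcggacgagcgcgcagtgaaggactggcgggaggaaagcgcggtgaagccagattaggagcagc
A match describes these letters only and is not evidence of binding.

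NK cell genes fell below the level of Ptgs+/+ tumors. All 16 genes tested were lower in NK cell-depleted Ptgs-/- tumors, 8 of them passed (5 without NK cell-depleted replicate 1 or 3), and the median log2 fold change was -1.52. Ncr1 (ENSMUSG00000062524, chromosome 7, 4337724 to 4345164), which encodes the activating receptor NKp46, had counts of 11, 7, 12 and 11 in the Ptgs+/+ libraries and 0 in each NK cell-depleted library. Given the floor of 3 counts per library, it was at least 3.23-fold lower. Klrc1, which encodes the inhibitory receptor NKG2A, was at 6.75, 4.40, 5.58 and 6.80 CPM in Ptgs+/+ tumors and at 0.536, 0.465 and 0.294 CPM after depletion (log2 fold change -3.74, standard error 0.44, adjusted p = 0.00027, edgeR). Ptgs-/- tumors of untreated mice held more, at 14.3, 23.2 and 38 CPM, so the 3 groups did not overlap. Gzma, which encodes the protease granzyme A, stood at 11.6, 2.90, 10.8 and 15.2 CPM in Ptgs+/+ tumors and at 0.215, 0.558 and 0 CPM in depleted tumors (log2 fold change -5.20, standard error 0.89, adjusted p = 0.0056, edgeR). Prf1, the gene for perforin, was too low to be tested, with counts of 2, 2, 5 and 8 in the Ptgs+/+ libraries and 0 in each depleted library. Of 8 cytotoxic effector genes tested, 1, Gzmc, fell. The count was 0 without any 1 of the NK cell-depleted libraries and 2 without Ptgs+/+ replicate 2 or 3 or untreated Ptgs-/- replicate 2. Gzmb did not pass (log2 fold change -1.67, adjusted p = 0.057). Of the refits that dropped a single library, it passed only without Ptgs+/+ replicate 3 (adjusted p = 0.0399, edgeR).

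Some NK receptor genes passed with less margin. Klrb1c, which encodes the depleting antibody's target NK1.1, was at 1.99, 1.501, 2.16 and 2.41 CPM against 0.429, 1.02 and 0.294 CPM (log2 fold change -1.75). Its adjusted p was 0.0649 without NK cell-depleted replicate 1 and 0.0732 without replicate 3 (edgeR). Klrc2, an activating relative of Klrc1, had a log2 fold change of -2.07 and adjusted p of 0.0547 and 0.0558 without the same libraries (edgeR). The activating receptor gene Klrk1 did not pass, with 3.89, 2.79, 3.96 and 5.54 CPM against 2.68, 2.51 and 4.11 CPM. Klra4, of the Ly49 receptor family, made up most of the summed level of the list and fell by 0.86 on the log2 scale, at 257, 264, 240 and 218 CPM in Ptgs+/+ tumors, 143, 164 and 98.1 CPM in depleted Ptgs-/- tumors and 143, 111 and 124 CPM in Ptgs-/- tumors of untreated mice. Ly49 genes are near-identical, and how the authors' counting split their reads is not given in the sources used here. The cytotoxic effector Ccl5, a chemokine made by NK and T cells, did not pass, at 13.1, 8.90, 13.7 and 10.1 CPM against 18.8, 22.1 and 14.6 CPM (adjusted p = 0.13, edgeR), except in the refit without untreated Ptgs-/- replicate 3 (adjusted p = 0.0438, edgeR).

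Several inflammatory cytokines and chemokines were lower in NK cell-depleted Ptgs-/- tumors than in Ptgs+/+ tumors. Of 6 tested genes that the study groups as cancer-promoting, Il1b, Il6 and Cxcl1 fell, 2 were higher without passing, and only 1 fell without NK cell-depleted replicate 1 or 2. The study chose that list, so it is not independent evidence of direction. Between Ptgs-/- tumors without and with NK cells, the direct difference was 0.10 for Il1b, 1.26 for Il6 and 0.96 for Cxcl1, none of which passed (adjusted p = 0.81, 0.52 and 0.50, edgeR). Il1b, the gene for IL-1β (ENSMUSG00000027398, chromosome 2, 129364570 to 129371139), was at 99.7, 85.8, 87.1 and 95.9 CPM in Ptgs+/+ tumors and at 20.3, 22.5 and 23.9 CPM in NK cell-depleted Ptgs-/- tumors. The log2 fold change came to -2.05 (standard error 0.12, adjusted p = 5e-06, edgeR), and Ptgs-/- tumors of untreated mice stood at 23.3, 18.9 and 19.9 CPM. Of 9 genes tested in a list of IL-1 and IL-6 family cytokines that also held Tnf, 3 fell, Il1b, Il6 and Il11. The list's median was -0.04. Il11, a cytokine of the IL-6 family, was at 54.8, 45.0, 70.5 and 44.2 CPM against 17.1, 22.2 and 27.4 CPM (log2 fold change -1.27). Il6 was at 11.3, 4.61, 4.23 and 7.53 CPM against 0.644, 1.21 and 2.84 CPM (log2 fold change -2.13). Its call was lost without NK cell-depleted replicate 1 (adjusted p = 0.0564) and without replicate 2 (adjusted p = 0.0709, edgeR).

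All 7 CXCR2 ligands and platelet chemokines tested were lower, 5 of them passed, and their median was -1.65. The count was 3 without any 1 of the NK cell-depleted libraries or without Ptgs+/+ replicate 1. Ppbp, whose product is processed into the neutrophil attractant CXCL7 (ENSMUSG00000029372, chromosome 5, 90768518 to 90770063), stood at 24.5, 22.3, 19.97 and 13.9 CPM in Ptgs+/+ tumors and at 1.82, 1.67 and 2.06 CPM in depleted Ptgs-/- tumors (log2 fold change -3.44, standard error 0.28, adjusted p = 3.6e-05, edgeR). Cxcl5, another ligand of the neutrophil receptor CXCR2, was at 111, 117, 70.1 and 119 CPM against 34.1, 32.7 and 34.3 CPM (log2 fold change -1.63). Depleted tumors were nevertheless above Ptgs-/- tumors of untreated mice, which held 16.9, 8.80 and 16.7 CPM of Cxcl5, and this difference of 1.26 passed the direct test (adjusted p = 0.033, edgeR). The platelet factor gene Pf4 had a smaller log2 fold change of -0.78 at higher levels, 435, 460, 502 and 417 CPM against 274, 246 and 271 CPM. Cxcl1 fell by 1.69 on the log2 scale and Cxcl3 by 2.25, and their calls were lost in 4 of 10 and 6 of 7 refits that dropped a single library and tested the gene, with adjusted p up to 0.0895 (without NK cell-depleted replicate 2) and 0.157 (without replicate 3, edgeR). Cxcl2 did not pass (log2 fold change -1.65, adjusted p = 0.11, edgeR).

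Neutrophil genes were lower for the most part, with 5 of 11 passing on the lower side, 1 on the higher side and a median of -1.15. S100a8, a subunit of the calprotectin complex of neutrophils and monocytes, was at 132, 121, 105 and 102 CPM in Ptgs+/+ tumors and at 44.6, 50.7 and 36.8 CPM in depleted tumors (log2 fold change -1.39, standard error 0.15, adjusted p = 0.00015, edgeR). Its partner S100a9 had a log2 fold change of -1.56. For both genes the depleted tumors lay between the other groups, since Ptgs-/- tumors of untreated mice held 16.9, 16.3 and 21.96 CPM of S100a8. The direct difference between Ptgs-/- tumors without and with NK cells was 1.26 for S100a8 (adjusted p = 0.0023) and 1.14 for S100a9 (adjusted p = 0.011, edgeR). Mmp9, a gelatinase stored in neutrophil granules, was at 341, 362, 168 and 314 CPM against 53.2, 59.9 and 40.0 CPM (log2 fold change -2.54). Histidine decarboxylase, Hdc, had a log2 fold change of -1.20. Cxcr2 was at 13.1, 10.6, 7.55 and 11.7 CPM against 4.29, 6.04 and 4.11 CPM, and its call was lost without NK cell-depleted replicates 1 (adjusted p = 0.0581) and 3 (adjusted p = 0.0679, edgeR). The member that rose was Retnlg, a resistin-like gene of neutrophils, at 4.84, 5.47, 4.95 and 6.80 CPM against 22.4, 23.6 and 10.2 CPM. It lost its call in 4 of 10 refits that dropped a single library (adjusted p up to 0.0741, reached without NK cell-depleted replicate 2, edgeR). The defining neutrophil marker Ly6g had at most 5 counts in any library and Csf3r, the receptor for G-CSF, did not pass (2.07 to 4.53 CPM against 4.00 to 5.48 CPM).

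**Figure D3:**
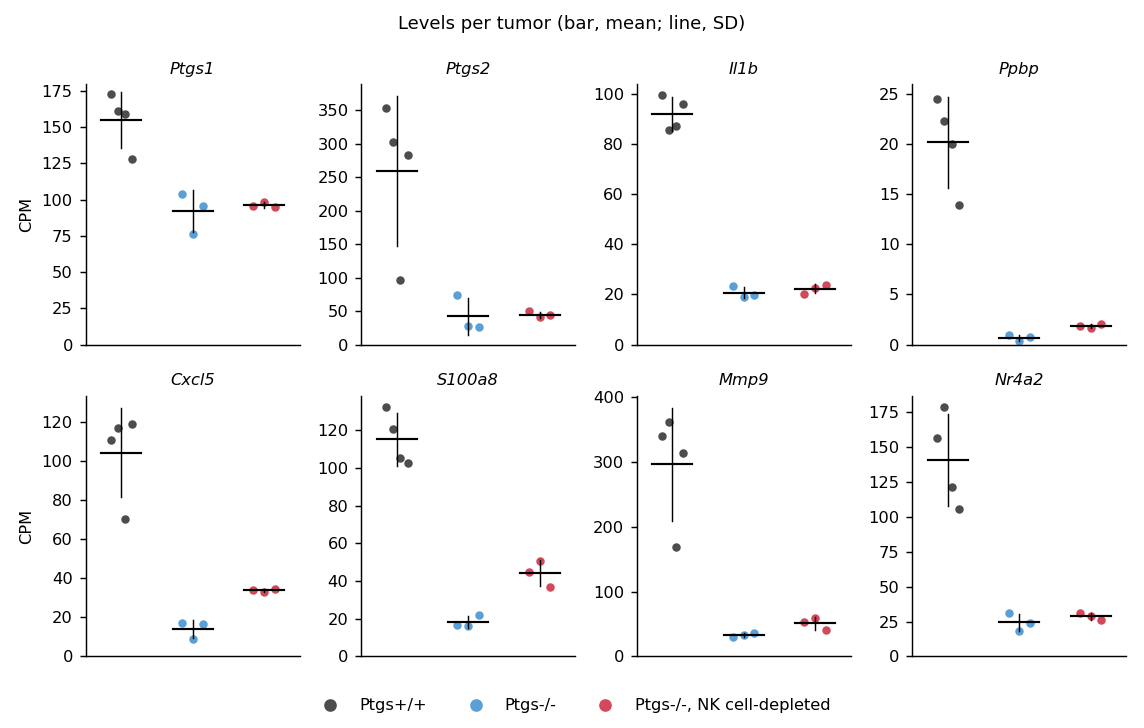
Levels in CPM per tumor (points) for 8 genes in the 3 groups, with the mean as a bar and the SD as a line. Both Ptgs-/- groups lie below all Ptgs+/+ tumors for each gene, and for Ppbp, Cxcl5, S100a8 and Mmp9 the NK cell-depleted tumors also lie above the Ptgs-/- tumors of untreated mice.

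The strongest falls took in secreted factors and transcription factors beside NK cell and chemokine genes. The 12 largest falls among called genes without overlap included Foxa2, Gzma, Cck, Slc44a5, Krt12, Tnn, Klrc1, Stc1, Ppbp, Ramp3 and Aqp2. Foxa2, a pioneer transcription factor of endoderm, had counts of 74, 51, 64 and 47 in the Ptgs+/+ libraries and 2, 0 and 1 in depleted ones, so that the Ptgs+/+ mean was 18.4 times the floor of 3 counts that no depleted library exceeded. Cck, the gene for the peptide hormone cholecystokinin, had a Ptgs+/+ mean of 19.7 times that floor. Stc1, which encodes the secreted glycoprotein stanniocalcin, was at 206, 225, 137 and 144 CPM against 15.7, 15.9 and 17.0 CPM (log2 fold change -3.46, standard error 0.21, adjusted p = 6e-06, edgeR). Ramp3, a protein that partners the calcitonin receptor-like receptor, was at 171, 194, 198 and 134 CPM against 16.3, 24.6 and 16.3 CPM. The tenascin Tnn had a log2 fold change of -3.92. Apart from Gzma and Klrc1, none of these named genes passed the direct test between Ptgs-/- tumors without and with NK cells, where adjusted p ran from 0.10 for Ppbp to 0.93 for Cck (edgeR).

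Interferon-inducible genes were higher in NK cell-depleted Ptgs-/- tumors than in Ptgs+/+ tumors, by modest amounts. All 13 guanylate-binding proteins (GBPs) and immunity-related GTPases tested, which defend cells against intracellular microbes, were higher, 8 passed and the median log2 fold change was 0.85. The count fell to 2 without NK cell-depleted replicate 3, 3 without replicate 2 or Ptgs+/+ replicate 1, 4 without Ptgs+/+ replicate 2 and 5 without Ptgs+/+ replicate 4. Gbp3 was at 6.19, 5.90, 8.36 and 9.63 CPM in Ptgs+/+ tumors and at 16.5, 13.6 and 22.3 CPM in depleted Ptgs-/- tumors (log2 fold change 1.22, standard error 0.24, adjusted p = 0.0071, edgeR). Gbp8 was at 1.59, 0.751, 1.44 and 1.26 CPM against 3.22, 5.58 and 4.01 CPM (log2 fold change 1.74). Ptgs-/- tumors of untreated mice lay above both groups for Gbp8, at 7.76, 12.9 and 16.3 CPM, and the direct difference of -1.53 passed (adjusted p = 0.031, edgeR). For Gbp3 the direct difference was -0.74 and did not pass (adjusted p = 0.26, edgeR). Irgm2 was at 20.3, 18.01, 13.7 and 28.5 CPM against 39.6, 36.7 and 57.0 CPM. Its log2 fold change of 1.14 lost its call without Ptgs+/+ replicate 1 (adjusted p = 0.0522), Ptgs+/+ replicate 2 (0.0589) or NK cell-depleted replicate 3 (0.0939, edgeR).

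The antiviral genes and MHC class I genes were also higher, though most single genes did not pass. All 20 antiviral genes tested were higher, with 3 passing (Ifit1, Mx1 and Zbp1) and a median of 0.74. None passed without NK cell-depleted replicate 2 or 3 or without Ptgs+/+ replicate 1, 2 or 4, whereas 7 passed without untreated Ptgs-/- replicate 2 and 6 without Ptgs+/+ replicate 3, so this count rests on single libraries. Among them, Ifit1, which binds viral RNA, was at 12.7, 11.7, 16.4 and 16.6 CPM against 19.2, 30.9 and 53.9 CPM (log2 fold change 1.28, adjusted p = 0.048, edgeR) and lost its call in 7 of 10 refits that dropped a single library (adjusted p up to 0.192, reached without NK cell-depleted replicate 3, edgeR). Isg15, a ubiquitin-like modifier, did not pass, at 59.8 to 100 CPM against 95.5 to 175 CPM, except without untreated Ptgs-/- replicate 2 (adjusted p = 0.0417, edgeR). Of 15 MHC class I presentation genes all were higher and 5 passed, with a median of 0.65, but 1 passed without NK cell-depleted replicate 3 and 3 without replicate 2. Against Ptgs+/+ tumors, the median in Ptgs-/- tumors of untreated mice was 1.66 for the antiviral list and 1.02 for the MHC class I list. H2-D1, a classical class I heavy chain, was at 799, 645, 801 and 1142 CPM against 1502, 1419 and 1563 CPM, and B2m, its invariant light chain, at 1323, 1078, 1381 and 1293 CPM against 1829, 2043 and 1920 CPM. Neither passed without 1 of the NK cell-depleted libraries, H2-D1 without replicate 3 (adjusted p = 0.0583) and B2m without replicate 2 (adjusted p = 0.0522, edgeR). In the interferon signaling list of 14, 3 genes rose, Irf8 and Ciita among them, and Jak2 fell. Irf8, a transcription factor of monocytes and dendritic cells, was at 67.5, 62.4, 67.6 and 62.9 CPM against 101, 117 and 123 CPM (log2 fold change 0.80, adjusted p = 0.0041, edgeR). Jak2 lost its call in 7 of these 10 refits, with adjusted p up to 0.178 (without NK cell-depleted replicate 1, edgeR). Ifng itself had counts of 0, 0, 0 and 2 in the Ptgs+/+ libraries and 1, 0 and 0 in depleted libraries.

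Promoters of Gbp3, Irgm2 and Ifit1 are shown because these interferon-inducible genes rose together and carry the same element. The element searched, the core of the interferon-stimulated response element, was GAAA, any 2 bases and GAAA again, on either strand. It was found in 3.44% of all promoters. Of 18 genes of the GTPase list, 11 had a promoter in the table and 10 of these held the element, and of 20 antiviral genes 14 had a promoter and 9 held it. Of 9 matched MHC class II genes, 1 held it. The Gbp3 window (chr3:142559794-142560093, plus strand), 1 of 2 listed for the gene, has overlapping copies starting 45 and 39 bases before the start. The Irgm2 window (chr11:58214727-58215026, plus strand) has a copy starting at 64 bases before it, and the Ifit1 window (chr19:34640639-34640938, plus strand) has copies starting at 104 and 85 bases before it.
Gbp3: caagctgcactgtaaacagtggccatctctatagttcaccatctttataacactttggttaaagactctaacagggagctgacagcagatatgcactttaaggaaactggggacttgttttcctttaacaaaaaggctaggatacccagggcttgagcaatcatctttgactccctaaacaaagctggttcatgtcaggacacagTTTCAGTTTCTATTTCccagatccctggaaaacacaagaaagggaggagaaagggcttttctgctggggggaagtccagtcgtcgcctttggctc
Irgm2: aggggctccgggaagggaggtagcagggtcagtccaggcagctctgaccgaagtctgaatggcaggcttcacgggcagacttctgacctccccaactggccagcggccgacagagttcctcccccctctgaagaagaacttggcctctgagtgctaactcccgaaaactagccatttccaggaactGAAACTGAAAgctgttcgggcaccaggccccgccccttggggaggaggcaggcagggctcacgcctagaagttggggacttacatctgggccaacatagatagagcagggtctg
Ifit1: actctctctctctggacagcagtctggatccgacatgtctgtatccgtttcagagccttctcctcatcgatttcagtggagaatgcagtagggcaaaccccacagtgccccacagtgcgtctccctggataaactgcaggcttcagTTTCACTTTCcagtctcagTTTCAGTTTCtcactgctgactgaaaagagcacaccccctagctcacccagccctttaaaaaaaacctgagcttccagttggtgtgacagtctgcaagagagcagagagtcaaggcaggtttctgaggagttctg
The 3 windows share the element close to the start, and these letters say nothing about which factor was bound in the tumors.

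MHC class II genes, which present antigen to CD4+ T cells, rose in nearly every member. Of 12 tested, 11 rose, and the median log2 fold change was 1.22. H2-Ab1 (ENSMUSG00000073421, chromosome 17, 34257689 to 34269419), a class II β chain, was at 294, 246, 275 and 268 CPM in Ptgs+/+ tumors and at 608, 762 and 651 CPM in NK cell-depleted Ptgs-/- tumors (log2 fold change 1.31, standard error 0.18, adjusted p = 0.00088, edgeR). H2-Aa, the matching α chain, was at 357, 306, 307 and 311 CPM against 770, 864 and 699 CPM. Cd74, the invariant chain that guides class II molecules, had a log2 fold change of 1.41, and H2-DMa, which helps to load peptides, one of 1.39. Ciita, the class II transactivator, was at 10.96, 9.65, 10.3 and 7.01 CPM against 18.6, 20.2 and 22.4 CPM (log2 fold change 1.101). Ptgs-/- tumors of untreated mice had 600, 1030 and 1150 CPM of H2-Ab1, which overlapped the depleted tumors, and the direct difference of -0.46 did not pass (adjusted p = 0.41, edgeR). The costimulatory gene Cd86 did not pass, at 11.3, 11.3, 11.4 and 12.2 CPM against 12.1, 13.1 and 16.8 CPM.

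Genes of type 1 conventional dendritic cells, which cross-present tumor antigen to CD8+ T cells, were all higher. Of 11 tested, 6 rose, with a median of 0.94. Batf3, the transcription factor that these cells need (ENSMUSG00000026630, chromosome 1, 191097847 to 191108945), was at 9.13, 5.04, 7.55 and 7.11 CPM against 23.8, 35.9 and 30.2 CPM (log2 fold change 2.05, standard error 0.24, adjusted p = 0.00026, edgeR). Xcr1, the chemokine receptor that marks them, was at 2.14, 2.57, 2.52 and 2.09 CPM against 5.36, 5.76 and 7.54 CPM. Wdfy4, needed for cross-presentation, was at 25, 27.99, 23.6 and 25.1 CPM against 52.8, 52.8 and 54.0 CPM (log2 fold change 1.07). Clec9a, a receptor for dead cells, had a log2 fold change of 1.53 but lost its call in 5 of 10 refits that dropped a single library (adjusted p up to 0.0993, reached without NK cell-depleted replicate 3, edgeR). None of 10 genes of migratory dendritic cells passed with edgeR or DESeq2, and 3 had an unadjusted p under 0.05.

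Single chemokines were also higher. Of 3 ligands of CXCR3 and CXCR6 tested, 1, Cxcl9, rose. Cxcl9, a ligand of CXCR3 that IFN-γ induces, was at 1.67, 1.82, 4.59 and 3.03 CPM in Ptgs+/+ tumors, 7.29, 9.76 and 12.3 CPM in depleted Ptgs-/- tumors and 24.7, 23.5 and 42.5 CPM in Ptgs-/- tumors of untreated mice. The 3 groups did not overlap. Its log2 fold change over Ptgs+/+ tumors was 1.82 (adjusted p = 0.0071, edgeR), while Cxcl10 did not pass (log2 fold change 1.03, adjusted p = 0.28). Of 11 CC chemokines, 3 rose and the median was 0.59. Ccl17, a ligand of CCR4 made by dendritic cells, was at 1.03, 0.429, 0.360 and 0.209 CPM against 3.54, 8.92 and 3.52 CPM (log2 fold change 3.30), and Ccl24, an eosinophil attractant, was at 5.00, 3.75, 5.76 and 3.03 CPM against 20.8, 76.2 and 26.7 CPM (log2 fold change 3.22). Depleted replicate 2 was the highest for both. Ccl22 lost its call in 7 of 10 refits that dropped a single library (adjusted p up to 0.201, reached without NK cell-depleted replicate 2, edgeR).

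T cell genes were higher at low levels. Of 18 tested, 17 were higher, 6 rose (Trac, Cd5, Cd8a, Lat, Cd28 and Il7r) and the median was 1.298. The count was 1 without NK cell-depleted replicate 1, 2 without replicate 2 or Ptgs+/+ replicate 2, 3 without Ptgs+/+ replicate 1 or 3 or untreated Ptgs-/- replicate 2, and 11 without untreated Ptgs-/- replicate 1, so it rests on single libraries. Of the 6, only Trac passed in every refit. Against Ptgs+/+ tumors, the list's median in Ptgs-/- tumors of untreated mice was 2.375. The T cell receptor chain Trac was at 0.635, 1.18, 0.630 and 1.15 CPM against 2.90, 3.16 and 3.72 CPM (log2 fold change 1.87, standard error 0.38, adjusted p = 0.0077, edgeR). Cd8a was at 0.318, 0.214, 0.270 and 0.314 CPM against 1.29, 0.836 and 0.783 CPM, and did not pass without NK cell-depleted replicate 1 (adjusted p = 0.0823, edgeR). Its Ptgs+/+ levels lay about at the detection floor, so the size of its rise is uncertain. The T cell marker Cd3e did not pass (log2 fold change 1.725, adjusted p = 0.17, edgeR), nor did it in any refit. The immunoglobulin chain Ighm, of B cells, was at 22.3, 10.3, 18.3 and 11.7 CPM against 63.4, 67.6 and 52.5 CPM (log2 fold change 1.96). The B cell marker Ms4a1 was too low to be tested, and had 45 counts in depleted replicate 1 against 0 to 8 counts in every other library.

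Monocyte and macrophage genes moved in both directions. Ccr2, the receptor that brings monocytes from blood, was at 189, 146, 140 and 166 CPM in Ptgs+/+ tumors and at 399, 371 and 446 CPM in depleted Ptgs-/- tumors (log2 fold change 1.34, standard error 0.18, adjusted p = 0.0007, edgeR). Vcan, the matrix proteoglycan versican of monocytes and stroma, moved the other way, at 223, 198, 193 and 181 CPM against 87.5, 92.8 and 90.1 CPM (log2 fold change -1.14). Of 10 monocyte genes 4 rose and 2 fell, and of 16 macrophage genes 4 rose and none fell, with medians of 0.38 and 0.45. Without NK cell-depleted replicate 2 or 3, 2 monocyte genes rose, and 1 fell without any 1 of the depleted libraries or Ptgs+/+ replicate 1. The macrophage count was 9 without untreated Ptgs-/- replicate 1 or 2 and 8 without Ptgs+/+ replicate 3. Adgre1, the gene for the macrophage marker F4/80, was at 29.2, 26.6, 29.7 and 26.5 CPM against 51.9, 44.7 and 51.2 CPM (log2 fold change 0.81), and the phagocytic receptor Mertk had a log2 fold change of 0.75. C1qa and Csf1r did not pass, with log2 fold changes of 0.46 and 0.45, although C1qa passed without Ptgs+/+ replicate 3 or untreated Ptgs-/- replicate 1 or 2 (adjusted p = 0.0254, 0.0255 and 0.0145) and Csf1r without untreated Ptgs-/- replicate 1 (adjusted p = 0.0066, edgeR).

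Genes that IL-4 and related signals induce in macrophages were among the larger rises. Retnla, a resistin-like secreted protein (ENSMUSG00000061100, chromosome 16, 48842551 to 48844461), was at 98.8, 26.1, 45.5 and 17.995 CPM against 627, 673 and 547 CPM (log2 fold change 3.70, standard error 0.52, adjusted p = 0.0026, edgeR). Ear2, an eosinophil-associated ribonuclease, was at 3.18, 1.07, 1.71 and 1.05 CPM against 18.1, 21.1 and 17.9 CPM (log2 fold change 3.39). The lectins Mgl2 and Clec10a had log2 fold changes of 1.88 and 1.25, and lost their calls without NK cell-depleted replicate 2 (adjusted p = 0.0578) and replicate 3 (adjusted p = 0.0558, edgeR). Ear2 has close relatives in its gene family, so its count is uncertain. Of the 9 polarization genes tested, 4 rose and none fell, with a median of 0.55. Against Ptgs+/+ tumors, the list's median in Ptgs-/- tumors of untreated mice was 1.38. Arg1 and Nos2, textbook markers of opposing macrophage states, did not pass (adjusted p = 0.76 for Arg1 at a log2 fold change of 0.27, and 0.82 for Nos2 at -0.33, edgeR).

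**Figure D4:**
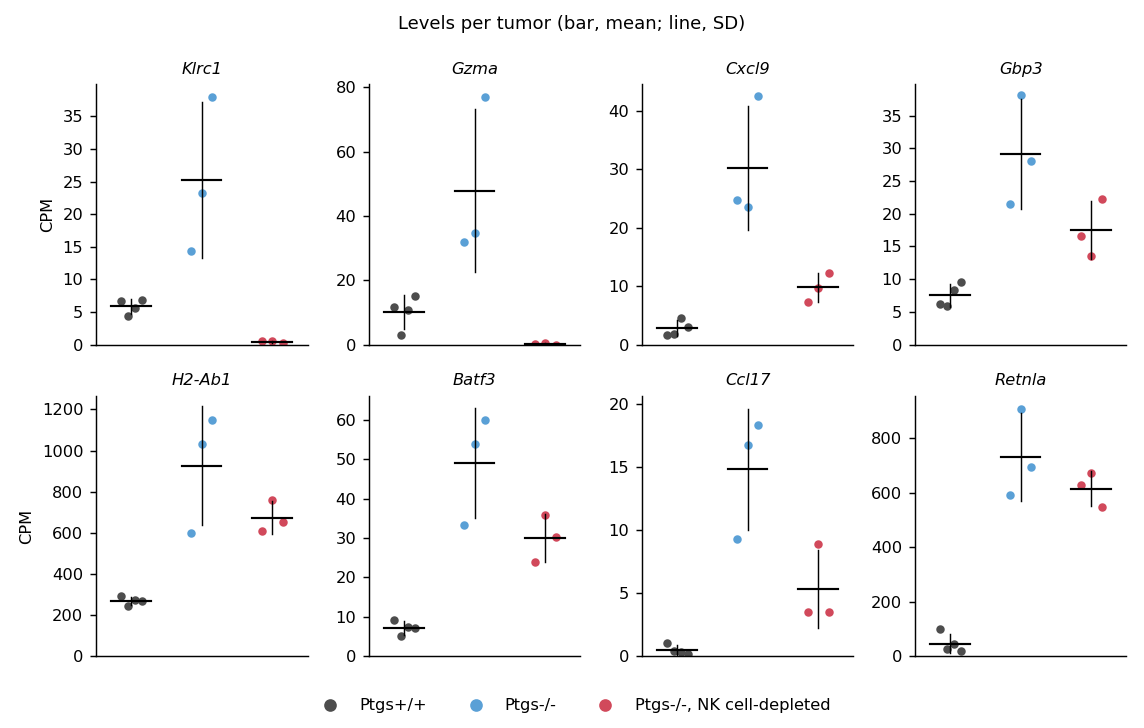
Levels in CPM per tumor (points) for 8 genes of NK cells, interferon response, antigen presentation, dendritic cells and macrophages in the 3 groups, with the mean as a bar and the SD as a line. NK cell-depleted tumors lie below Ptgs+/+ tumors for Klrc1 and Gzma and above them for the other 6 genes.

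Skeletal muscle genes had the highest median of the 44 lists. Of 17 tested, all 17 rose, with a median log2 fold change of 5.26, and without 1 library at a time the median ran from 4.67 (without NK cell-depleted replicate 3) to 5.98 (without Ptgs+/+ replicate 3). Acta1, the skeletal α-actin gene (ENSMUSG00000031972, chromosome 8, 123891769 to 123894751), was at 18.9, 41.2, 86.2 and 7.43 CPM in Ptgs+/+ tumors, 169, 131 and 44.6 CPM in Ptgs-/- tumors of untreated mice and 1200, 1694 and 2506 CPM in NK cell-depleted Ptgs-/- tumors. The log2 fold change of depleted over Ptgs+/+ tumors was 5.55 (standard error 0.85, adjusted p = 0.0042, edgeR), and 6.33 without Ptgs+/+ replicate 3, the highest of its group. Pvalb, a calcium buffer of fast fibers, was at 1.75, 5.36, 7.46 and 0.732 CPM against 150, 174 and 330 CPM (log2 fold change 5.83), and the fast myosin Myh4 at 8.42, 11.3, 26.5 and 3.45 CPM against 409, 518 and 1197 CPM. Ptgs+/+ replicate 4 held the least and replicate 3 the most of each of these genes, and depleted replicate 3 held the most of its group. Together the list took 0.00374% to 0.0230% of all counts in Ptgs+/+ libraries, 0.0163% to 0.0535% in Ptgs-/- libraries of untreated mice and 0.294% to 0.718% in depleted libraries.

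The 12 largest rises among called genes without overlap were Sln, Apobec2, Dhrs7c, 1110002E22Rik, Mypn, Ky, Smtnl1, Mybpc1, Trdn, Tmem233, Trim63 and Pvalb. Most of them are known from striated muscle, such as sarcolipin (Sln), which inhibits the calcium pump, triadin (Trdn), which anchors the calcium release complex, and Trim63, a ubiquitin ligase of wasting muscle. Sln had counts of 3, 1, 2 and 0 in the Ptgs+/+ libraries and 72, 143 and 272 in depleted libraries, so that the depleted mean was 56.7 times the floor of 3 counts. Trdn was at 1.03, 0.858, 2.70 and 0.209 CPM against 35.3, 55.2 and 142 CPM (log2 fold change 5.96, standard error 0.73, adjusted p = 0.0012, edgeR). All 12 also passed the direct test between Ptgs-/- tumors without and with NK cells (adjusted p from 0.00081 to 0.042, edgeR), with the depleted tumors higher. These genes were chosen for high levels in the same depleted libraries, so passing the direct test is not separate support. In the muscle list, Mylpf and Tnni2 passed that test (adjusted p = 0.021 and 0.033), while Acta1, Ckm and Myh4 did not (adjusted p = 0.096, 0.056 and 0.059, edgeR). Recomputing the library scaling without muscle, fat and skin genes left 394 genes called, and the part of the muscle content in other results was not tested further.

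Of 10 genes of muscle regeneration and denervation, 3 could be tested and all 3 rose. Their pattern over the groups was not uniform, with Myog mainly in depleted tumors and Chrna1 high in both Ptgs-/- groups. Myog, the myogenic factor of differentiating muscle cells, had 0 counts in all Ptgs+/+ libraries, 3, 1 and 0 in Ptgs-/- libraries of untreated mice and 26, 31 and 35 in depleted libraries, at least 10.8-fold higher than in Ptgs+/+ tumors. Chrna1, the muscle acetylcholine receptor subunit that denervated muscle raises, was at 16.4, 10.6, 10.6 and 6.38 CPM in Ptgs+/+ tumors, 106, 77.7 and 116 CPM in Ptgs-/- tumors of untreated mice and 135, 169 and 102 CPM in depleted tumors. The log2 fold change over Ptgs+/+ tumors was 3.61 (standard error 0.28, adjusted p = 6.8e-05, edgeR), and the direct difference between the Ptgs-/- groups was 0.44 and did not pass (adjusted p = 0.63, edgeR). The adhesion molecule Ncam1 had a log2 fold change of 0.81. The stem cell factor Pax7 had 0 counts in Ptgs+/+ libraries and 1, 3 and 14 in depleted libraries, and was not tested.

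**Figure D5:**
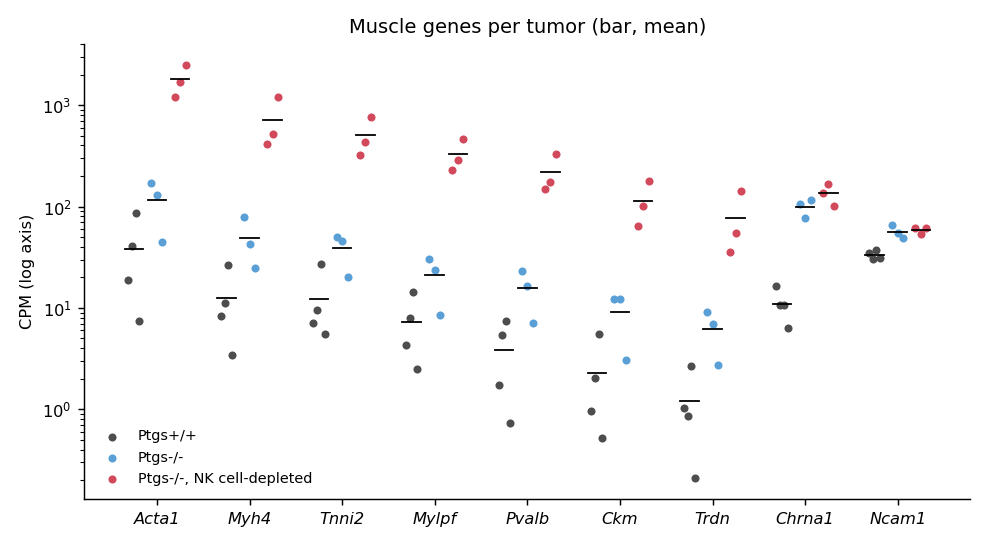
Levels in CPM per tumor (points, log axis) of 9 muscle genes in the 3 groups, with the mean as a bar. For Acta1 through Trdn the 3 NK cell-depleted tumors lie above all others, whereas for Chrna1 and Ncam1 both Ptgs-/- groups lie above the Ptgs+/+ tumors.

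Fat and skin genes did not follow muscle. None of 12 adipocyte genes passed with edgeR or DESeq2 and 0 had an unadjusted p under 0.05, with a median of 0.17, and Adipoq, which marks fat cells, was at 108, 158, 416 and 374 CPM against 395, 170 and 343 CPM. Adipocyte genes took 0.256% to 1.19% of counts in Ptgs+/+ libraries and 0.494% to 0.960% in depleted libraries, so the groups overlapped. Among 10 genes of keratinocytes and hair, the basal keratins Krt5 and Krt14 did not pass (log2 fold changes -0.46 and -0.54). The wound keratin Krt6a fell, from 40.0, 51.8, 44.7 and 40.8 CPM to 8.37, 13.1 and 7.24 CPM (log2 fold change -2.21), while Sprr1a, a stress-induced cornified envelope gene, rose from 9.61, 27.7, 12.6 and 7.74 CPM to 98.9, 110 and 67.9 CPM (log2 fold change 2.69, standard error 0.39, adjusted p = 0.0021, edgeR). Of 14 endothelial genes, 0 passed with edgeR (3 at an unadjusted p under 0.05), 2 passed with DESeq2 and up to 3 passed as lower without an untreated Ptgs-/- library (replicate 1), at a median of -0.33, and Xist was at 32.5 to 58.2 CPM against 39.4 to 64.8 CPM with no count of the Y-linked Ddx3y in any library.

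Cell cycle genes were lower in NK cell-depleted Ptgs-/- tumors. All 15 genes of G2/M and mitosis were lower, 9 passed and the median was -0.66, and of 15 genes of G1/S and replication, all lower, 5 passed with a median of -0.36. Without NK cell-depleted replicates 1 and 3 in turn, 5 and 4 genes of G2/M and 1 and 0 of G1/S passed, and 3 of G1/S passed without Ptgs+/+ replicate 1 or 2. Without Ptgs+/+ replicate 3, 13 of G2/M and 5 of G1/S passed. Against Ptgs+/+ tumors, the medians in Ptgs-/- tumors of untreated mice were -0.96 for G2/M and -0.62 for G1/S. Cenpe, a motor protein of the kinetochore, was at 195, 215, 195 and 148 CPM against 99.6, 106 and 91.1 CPM (log2 fold change -0.93, standard error 0.13, adjusted p = 0.00087, edgeR). Ccnb1, the mitotic cyclin, was at 141, 173, 101 and 119 CPM against 76.3, 76.0 and 50.1 CPM (log2 fold change -0.98). Top2a, a topoisomerase of dividing cells, had a log2 fold change of -0.68 and lost its call without NK cell-depleted replicates 1 (adjusted p = 0.0607) and 3 (adjusted p = 0.0736, edgeR). Rrm2, which makes deoxynucleotides, had one of -0.95 and lost its call without replicate 3 (adjusted p = 0.0669, edgeR). Cdk1 did not pass (adjusted p = 0.063), except without Ptgs+/+ replicate 3 (adjusted p = 0.0062, edgeR).

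Genes used to describe the state of melanoma cells changed in few cases. In bulk tumors host cells may supply the same transcripts, and their source was not tested. None of 5 melanocytic genes passed with edgeR or DESeq2, and 0 had an unadjusted p under 0.05. Of 12 neural crest and dedifferentiation genes, Sox9 rose and Axl and Tnc fell. Sox9, a transcription factor of neural crest and cartilage, was at 118, 105, 142 and 120 CPM against 322, 364 and 316 CPM (log2 fold change 1.46, standard error 0.16, adjusted p = 0.00017, edgeR). The receptor kinase Axl was at 516, 608, 518 and 444 CPM against 360, 380 and 284 CPM (log2 fold change -0.61), and Tnc lost its call in 5 of 10 refits that dropped a single library (adjusted p up to 0.0982, reached without NK cell-depleted replicate 1, edgeR). Ereg, a ligand of the EGF receptor, was at 166, 171, 138 and 109 CPM against 37.5, 44.7 and 37.6 CPM (log2 fold change -1.87). Of 16 genes of ERK output, 4 fell (1 without NK cell-depleted replicate 1 or 3, 2 without Ptgs+/+ replicate 1) and none rose, with log2 fold changes of -0.63 (Etv1) to -0.47 (Phlda1), and each lost its call without at least 1 NK cell-depleted library, with the highest adjusted p from 0.0597 (Etv1, without replicate 3) to 0.101 (Spry2, without replicate 1, edgeR).

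Matrix and vessel genes gave single changes. The matrix glycoprotein Thbs1, which restrains vessel growth, was at 122, 103, 60.3 and 89.5 CPM against 23.4, 18.4 and 19.97 CPM (log2 fold change -2.19, standard error 0.22, adjusted p = 0.00012, edgeR). Timp1, an inhibitor of matrix metalloproteinases, was at 658, 753, 594 and 587 CPM against 312, 347 and 296 CPM (log2 fold change -1.02). Pgf, placental growth factor, had a log2 fold change of -1.25, while Vegfa did not pass (0.34, adjusted p = 0.42, edgeR). Of 18 genes of glycolysis and hypoxia 1, Adm, fell, and it lost its call in 7 of 10 refits that dropped a single library (adjusted p up to 0.149, reached without NK cell-depleted replicate 3, edgeR). Without untreated Ptgs-/- replicate 1, 3 genes of this list passed as higher and 0 as lower. The collagen gene Col1a1 did not pass (log2 fold change 0.29, adjusted p = 0.14, edgeR).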

How the data were processed

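RNA was sequenced from bulk tumors with QuantSeq 3′ libraries. The authors trimmed reads, used STAR for alignment to GRCm38 and featureCounts for gene counts, and deposited raw read counts per gene with no normalization and no pooling. Strand, multimapping and molecular identifiers in the counting are not given in the sources used here, so near-identical, overlapping and antisense genes are uncertain. Of 45706 gene identifiers, 45143 were named from GENCODE M21 on the same build.

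The analysis used edgeR 4.0.16 under R 4.3.3. After filterByExpr (14550 genes) and TMM normalization, 1 model of all 10 libraries with 3 groups was fitted with robust quasi-likelihood dispersions, and the contrasts were tested with Benjamini-Hochberg adjustment over all genes. Values marked as the direct test compare Ptgs-/- tumors without and with NK cells in the same model. The comparisons share libraries and are not independent. Named genes are the targeted genes, the 12 strongest changes in each direction among called genes without overlap with a mean of at least 5 CPM in the higher group, and in each list up to 6 passing members, its defining markers and up to 3 abundant members that did not pass. Prf1, Ifng, Pax7, Ly6g, Ms4a1, Arg1 and Nos2 are members named outside that rule, and some genes that it selects are not reported here. The members and lists were chosen with earlier results of these data known. Depth was 8150556 to 12839174 counts per library. On simulated counts, the procedure called 176 of 195 genes changed by a log2 fold change of 2 (90.3%) and 3 unchanged genes, with 14337 genes run. Changed genes removed by the filter were not counted. The simulation drew genes independently and held no outlying library and no change in untreated Ptgs-/- tumors, so these shares need not hold for the real libraries. Alternatives were DESeq2 1.42.0, other scalings, filters, thresholds and tests, the experiment code, a replicate block, no robust estimation (added after seeing the data) and each library left out.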

Additional observations from a re-analysis of the deposited data

Results flagged for a closer look

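Among the 154 named genes with at least 5 CPM in a Ptgs+/+ library, 6 had 1 of the 4 Ptgs+/+ tumors set apart from the rest. This was judged by the gap to the nearest value over the whole range (beyond a 95% critical value, which chance passes in about 1 of 20 groups). At that rate, 6 of 154 genes is no excess over chance. Of the 6, 4 fell on Ptgs+/+ replicate 3. Replicate 3 had 56.9 CPM of Csf1, the macrophage growth factor, against 157 to 169 CPM in the others. Csf1 did not pass (adjusted p = 0.53), except without that library (log2 fold change -0.65, adjusted p = 0.0342, edgeR). The same replicate had 70.1 CPM of Cxcl5 against 111 to 119 CPM, and 2.43 CPM of Nrg1, a ligand of ERBB receptors, against 5.36 to 5.96 CPM. It also had the highest level of Cd5l, a secreted macrophage protein, at 7.46 CPM against 2.51 to 3.002 CPM. Replicate 1 had 357 CPM of H2-Aa against 306 to 311 CPM, and replicate 4 had 12.2 CPM of Cd86 against 11.3 to 11.4 CPM. NK cell-depleted tumors, at 3, were too few for this check.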

How the results depend on the processing

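The count of 394 called genes (292 higher, 102 lower) stayed within 1.5 times under DESeq2 (411), other scalings (394 to 399), no filter on low counts (493), a likelihood ratio test (435), only the 7 libraries compared (381), libraries of the first experiment code (420), the code as a term (388) and no robust estimation (395). Requiring at least 10 counts in every library left 142 calls (97 higher, 45 lower) among fewer genes tested. With no limit on the fold change, 1846 genes passed (975 higher, 871 lower), so the higher share was 52.8% in place of 74.1%. Leaving out 1 library gave 337 (without NK cell-depleted replicate 3) to 435 calls, 256 to 320 higher and 81 to 115 lower. With the label number as a replicate block there were 396 (297 higher, 99 lower). Same-numbered tumors correlated at -0.0321, 0.0705 and 0.217, and NK cell-depleted replicate 1 correlated best with Ptgs+/+ replicate 2 (0.218), so the numbers were not taken to pair the samples. Among 195 named genes, 155 passed, of which 98 passed in every alternative and 57 lost the call in at least 1. Adipoq ranged from -0.0646 (without Ptgs+/+ replicate 1) to 0.505 on the log2 scale and was -0.0428 without NK cell-depleted replicate 1, and Xist ranged from -0.113 (without NK cell-depleted replicate 3) to 0.287. Of the 40 named genes that did not pass, 24 passed under at least 1 alternative. At this depth, genes under about 0.3 CPM could not be resolved.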

Other observations

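Beyond the lists, several abundant genes changed that were chosen after their values were seen. Clu, the secreted chaperone clusterin, was at 551, 820, 628 and 404 CPM in Ptgs+/+ tumors and at 71.6, 83.0 and 53.6 CPM in NK cell-depleted Ptgs-/- tumors (log2 fold change -3.11, standard error 0.26, adjusted p = 7e-05, edgeR). Il1rl1, the receptor for IL-33, was at 594, 659, 457 and 517 CPM against 129, 123 and 109 CPM, and Rgs16, a regulator of G protein signaling, at 337, 321, 168 and 235 CPM against 36.6, 39.6 and 31.6 CPM. Cyp26b1, which breaks down retinoic acid, had a log2 fold change of -2.14. Akr1c18, an enzyme that inactivates progesterone, had one of -2.13. The acute-phase gene Saa3 was at 1329, 798, 740 and 1480 CPM against 185, 513 and 247 CPM, and lost its call without NK cell-depleted replicate 3 (adjusted p = 0.0747, edgeR).

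On the higher side, Aldh3a1, an aldehyde dehydrogenase of epithelia, was at 29.0, 17.2, 12.4 and 11.3 CPM against 133, 124 and 110 CPM (log2 fold change 2.80, standard error 0.29, adjusted p = 0.00026, edgeR). The ligand Wnt7b was at 145, 162, 184 and 111 CPM against 522, 571 and 399 CPM. Cd5l was at 2.94, 3.002, 7.46 and 2.51 CPM against 67.7, 33.3 and 58.0 CPM, and the neurofilament gene Nefm had a log2 fold change of 3.39. None of these genes passed the direct test between Ptgs-/- tumors without and with NK cells (adjusted p from 0.42 for Wnt7b to 0.94 for Aldh3a1, edgeR), which does not show that the groups are alike.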
